A study of Mus musculus with 10 samples.

Results

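Lcn2, Hp, Saa1, Saa3, Lyz1, Lyz2, Retnla and Chi3l1 encode secreted proteins of antimicrobial defence and of the acute-phase response. They were followed in distal tip cells of the developing mouse lung on 10 Affymetrix microarrays. These 8 genes were taken, out of 17813 with a probe set of their own, by their symbols in the platform annotation, and they were selected on measured values, namely their E17.5 minus E11.5 differences and their spread among the E17.5 arrays, which were already known. A gene with several probe sets is given by the brightest, judged by its mean over the 10 arrays. A search of the annotation by symbol alone found 7 of the 8, and Chi3l1 was reached as Chil1, the symbol under which a RefSeq gene table lists Chi3l1 as an older name.

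The E11.5 group held 5 arrays of tips cut by hand from lungs treated with dispase. The E17.5 group held 5 arrays of GFP+ cells sorted by flow cytometry from lungs dissociated with trypsin and EDTA. The labels give the same genotype, Id2-CreER; Rosa26R-fGFP, for both stages, and the methods place the transgenic mice on a C57Bl/6J background. At E17.5 the mothers had received tamoxifen at E16.5, at 150 µg per g of body weight. Cre is driven here from Id2, a gene active in distal tips, so the sorted cells were those with Id2-driven recombination after E16.5, and per the methods they held a few of their immediate progeny. Stage, tamoxifen and way of isolation changed together and cannot be told apart. In bulk RNA of this kind, fewer cells of a type and less RNA per cell cannot be told apart either. By their titles the arrays are biological replicates, 5 per stage, and the labels do not say whether they came from separate litters or pools of embryos, so an error given here is the spread between these replicates.

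Acute-phase proteins are made mostly by the liver when interleukin 6, interleukin 1 and related cytokines reach it through STAT3, C/EBP and NF-kB factors, and several of them are also made by lung epithelium and by myeloid cells. Lysozymes cut the bacterial cell wall, lipocalin 2 takes up iron-carrying siderophores, haptoglobin binds free haemoglobin, and serum amyloid A proteins travel on lipoprotein particles and attract leukocytes. In the lung, lysozyme is a known product of both alveolar type 2 cells and macrophages, and the resistin-like and chitinase-like proteins are best known from macrophages and airway epithelium in type 2 inflammation.

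The bases just before the start site are shown for 6 of the members, as the place where C/EBP, STAT3 and NF-kB could act. The 250 bases come from RefSeq, build GRCm38.p6, read 5′ to 3′ on the strand of the gene, and capitals mark a motif. The lysozyme pair and the serum amyloids are given for their likeness, and Lcn2 and Retnla as the lipocalin and the resistin-like member.
Lcn2 (chr2:32387740-32387989, minus strand): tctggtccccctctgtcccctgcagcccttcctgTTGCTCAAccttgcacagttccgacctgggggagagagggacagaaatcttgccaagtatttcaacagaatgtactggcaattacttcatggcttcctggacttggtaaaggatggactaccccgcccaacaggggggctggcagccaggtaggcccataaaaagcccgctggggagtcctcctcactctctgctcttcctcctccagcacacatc
Saa1 (chr7:46742981-46743230, minus strand): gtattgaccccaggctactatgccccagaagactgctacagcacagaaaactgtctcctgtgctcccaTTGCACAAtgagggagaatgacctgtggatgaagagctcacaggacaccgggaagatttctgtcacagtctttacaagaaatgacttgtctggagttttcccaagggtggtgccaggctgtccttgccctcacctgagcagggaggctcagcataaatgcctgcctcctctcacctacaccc
Saa3 (chr7:46715677-46715926, minus strand): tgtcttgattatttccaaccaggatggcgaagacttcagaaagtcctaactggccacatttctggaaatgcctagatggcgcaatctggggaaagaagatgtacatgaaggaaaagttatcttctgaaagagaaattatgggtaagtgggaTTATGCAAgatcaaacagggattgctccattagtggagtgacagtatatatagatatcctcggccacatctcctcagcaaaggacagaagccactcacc
Lyz1 (chr10:117292869-117293118, minus strand): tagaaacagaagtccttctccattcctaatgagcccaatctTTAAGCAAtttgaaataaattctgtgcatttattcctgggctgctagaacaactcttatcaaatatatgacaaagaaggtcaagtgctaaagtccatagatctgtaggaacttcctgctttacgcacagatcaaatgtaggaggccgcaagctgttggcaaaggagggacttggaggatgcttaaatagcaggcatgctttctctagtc
Lyz2 (chr10:117282273-117282522, minus strand): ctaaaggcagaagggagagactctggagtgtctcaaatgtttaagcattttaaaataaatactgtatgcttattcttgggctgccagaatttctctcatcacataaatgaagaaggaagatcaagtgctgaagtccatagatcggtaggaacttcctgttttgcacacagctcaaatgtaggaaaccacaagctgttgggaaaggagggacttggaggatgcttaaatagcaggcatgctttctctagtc
Retnla (chr16:48842359-48842608, plus strand): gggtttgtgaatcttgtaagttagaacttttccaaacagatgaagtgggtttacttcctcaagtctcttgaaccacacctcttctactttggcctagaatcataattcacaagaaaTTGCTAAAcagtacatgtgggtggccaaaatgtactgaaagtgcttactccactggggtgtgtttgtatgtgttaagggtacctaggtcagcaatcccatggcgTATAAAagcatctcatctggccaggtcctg

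A window was on hand for 7 of the 8 members. The C/EBP motif TTGCNNAA, searched on both strands, was found in 5 of these 7, against 9.56% of 32851 windows of the same length from 27025 genes. It lay from -216 to -209 in Lcn2, from -182 to -175 in Saa1, from -99 to -92 in Saa3, from -209 to -202 in Lyz1 and from -134 to -127 in Retnla, counted from the start site. The STAT motif TTCNNNGAA was in 0 of 7, against 7.02% of all windows. The NF-kB motif was in 1 of 7, Chi3l1, against 3.90%. In Retnla the TATAAA box from -30 to -25, searched on the strand of the gene only, was the 1 match among 7, against 7.59% of windows. No matches overlapped. The windows of Lyz1 and Lyz2 were identical at 79.4% of the columns of their alignment, and Lyz2 lacked the C/EBP motif that Lyz1 held. Saa1 and Saa2 were identical at 94.8%. Every other pair among these members and Saa2 reached at most 52.6%. These matches describe letters and were not tested for binding.

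The gene order follows the same kinship. In the RefSeq table, Lyz2 and Lyz1 are next to each other on chromosome 10, and Saa3, Saa4, Saa1 and Saa2 follow each other on chromosome 7. Retnla lies between Retnlb and Retnlg on chromosome 16, and Chil1 lies beside Chit1 on chromosome 1. RNA of one paralog can bind probes of another, which bears on the lysozymes and on Saa1 below.

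Of the 8 genes, 7 had a higher signal at E17.5 than at E11.5 on every array, with no overlap of the stages, and 1, Saa1, had a lower signal with no overlap. Over all genes the stages did not overlap in 32.3% with E17.5 higher and in 26.3% with E17.5 lower. The 7 higher genes differed by 23.6-fold to 479-fold, and a difference of at least 16-fold upwards was seen in 2.76% of all genes. The median of the 8 differences was 7.05 on the log2 scale, against 0.03 over all genes. Among all genes ordered by their rise, 2 of the 8 were in the first 10 and 5 in the first 100. Because the members were chosen with these differences known, they are given as a description with no test.

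**Figure D1:**
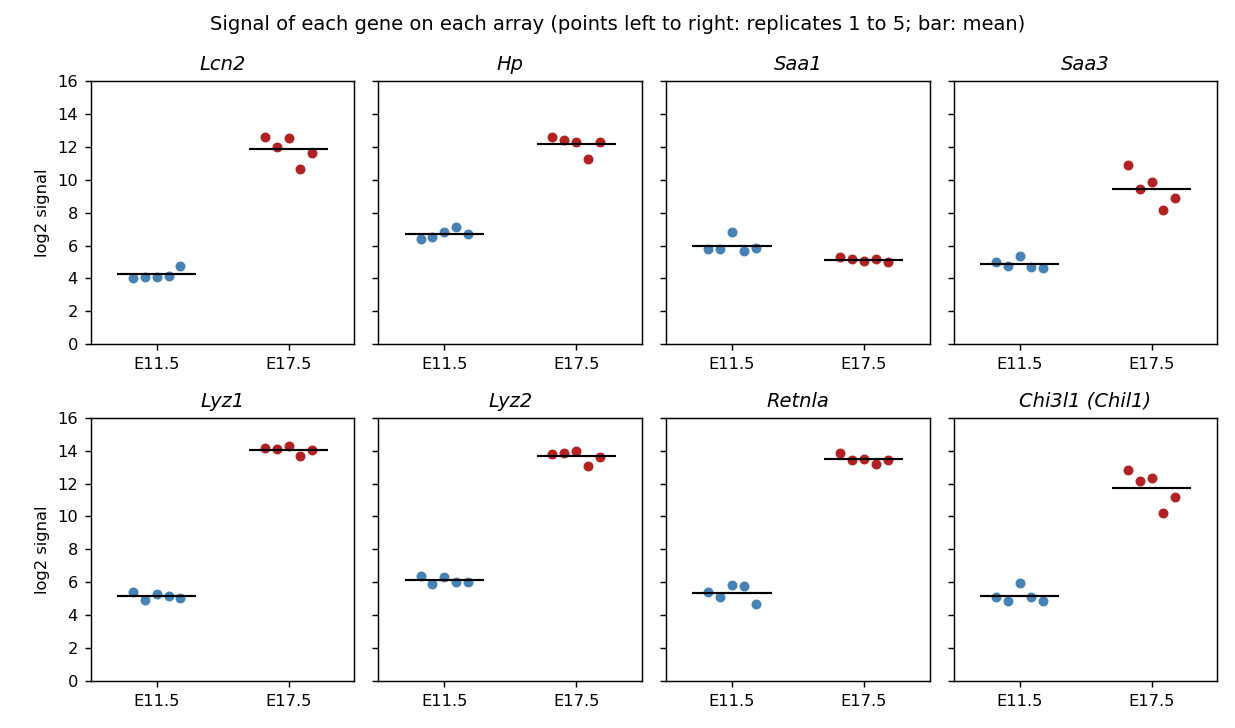
log2 signal (vertical axis) of each of the 8 genes on the 5 E11.5 arrays (blue) and the 5 E17.5 arrays (red), with points from left to right for replicates 1 to 5 and a bar at the mean. The stages do not overlap in any panel, and E17.5 replicate 4 is the lowest red point in each of the 7 panels where E17.5 is higher.

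The lysozymes are given first. For Lyz1, the lysozyme known from Paneth cells of the gut, the log2 signal was 5.41, 4.89, 5.26, 5.15 and 5.04 on E11.5 replicates 1 to 5 and 14.15, 14.08, 14.31, 13.70 and 14.04 on E17.5 replicates 1 to 5. The E17.5 arrays lay close together and far above the E11.5 arrays. The means were 5.15 ± 0.20 and 14.06 ± 0.22 (SD, n = 5 each), a difference of 8.90 with an SE of 0.13 and a 95% interval of 8.62 to 9.19 from limma, or 479-fold. It was the third largest rise of all genes. Its probe set carries the suffix for probes that may also match other transcripts.

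Lyz2 is the lysozyme of macrophages and of alveolar type 2 cells. Its log2 signal was 6.39, 5.87, 6.33, 6.00 and 6.00 at E11.5 and 13.80, 13.84, 13.95, 13.04 and 13.63 at E17.5. Replicate 4 was the lowest at E17.5 and still stood far above the highest E11.5 array. The means were 6.12 ± 0.23 and 13.65 ± 0.36, a difference of 7.53 (SE 0.17, 95% interval 7.15 to 7.91), or 185-fold.

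Lcn2 encodes lipocalin 2. The log2 signal was 4.05, 4.11, 4.11, 4.17 and 4.79 on the E11.5 arrays and 12.62, 11.97, 12.52, 10.63 and 11.60 on the E17.5 arrays. Replicate 5 stood above the other E11.5 arrays, and replicate 4 was again the lowest at E17.5. The mean went from 4.25 ± 0.30 to 11.87 ± 0.81, a difference of 7.62 (SE 0.33, 95% interval 6.90 to 8.34), or 197-fold.

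Haptoglobin, encoded by Hp, had log2 signals of 6.41, 6.53, 6.80, 7.14 and 6.72 at E11.5 and of 12.57, 12.43, 12.30, 11.27 and 12.28 at E17.5. At E17.5 replicate 4 stood below the others, which lay close together, and all were above the E11.5 arrays. The means were 6.72 ± 0.28 and 12.17 ± 0.52, which gave a difference of 5.45 (SE 0.23, 95% interval 4.95 to 5.95), or 43.7-fold.

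The serum amyloids went in opposite directions. Saa3, the serum amyloid made outside the liver by macrophages, fat and epithelium, had log2 signals of 5.00, 4.76, 5.34, 4.69 and 4.65 at E11.5 and of 10.90, 9.45, 9.87, 8.14 and 8.88 at E17.5. Replicate 1 was the highest and replicate 4 the lowest at E17.5, with no overlap between stages. The means were 4.89 ± 0.29 and 9.45 ± 1.04, a difference of 4.56 (SE 0.41, 95% interval 3.67 to 5.45), or 23.6-fold.

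Saa1, a main serum amyloid of the liver, had log2 signals of 5.81, 5.76, 6.80, 5.65 and 5.87 at E11.5 and of 5.30, 5.17, 5.04, 5.16 and 5.01 at E17.5. Replicate 3 was the highest at E11.5, and the nearest arrays of the stages were 0.36 apart. The means were 5.98 ± 0.47 and 5.14 ± 0.11, a difference of -0.84 (SE 0.19, 95% interval -1.26 to -0.43), or 1.80-fold lower at E17.5. The platform names this probe set Saa1, but RefSeq gives the accession it was built on to Saa2, and its suffix marks probes shared within a gene family. A second probe set, built on an accession of Saa1 itself, had log2 signals of 3.65, 3.56, 4.04, 3.44 and 3.65 at E11.5 and of 3.34, 3.27, 3.26, 3.21 and 3.16 at E17.5. Its means were 3.67 ± 0.23 and 3.25 ± 0.07, a difference of -0.42, or 1.34-fold lower. Both probe sets were dim, this one close to the lowest value of the table (2.472), and both were left out by a filter that drops genes below the median signal, so neither size can be read closely.

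Saa4, the neighbour of Saa3 and Saa1, is a constitutive serum amyloid, but was counted in the list of positive acute-phase proteins described further on. It was singled out after its values were seen. It rose by 1.02 on the log2 scale, or 2.03-fold, with an adjusted p of 0.000238 in limma. Its probe set was dim too, with a mean below that of the brighter Saa1 probe set at both stages. The size of this rise thus cannot be read closely either.

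Retnla, the resistin-like protein of alternatively activated macrophages and of inflamed airway epithelium, had log2 signals of 5.40, 5.10, 5.82, 5.74 and 4.69 at E11.5 and of 13.86, 13.43, 13.52, 13.21 and 13.44 at E17.5. The E17.5 arrays were closer together than the E11.5 arrays. The means were 5.35 ± 0.47 and 13.49 ± 0.24, a difference of 8.14 (SE 0.21, 95% interval 7.69 to 8.59), or 282-fold.

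Chi3l1 encodes a chitinase-like protein that binds chitin without cutting it. Its log2 signal was 5.09, 4.86, 5.96, 5.10 and 4.87 at E11.5 and 12.84, 12.15, 12.31, 10.20 and 11.19 at E17.5. Replicate 3 stood above the other E11.5 arrays, and replicates 4 and 5 were the lowest at E17.5. The means were 5.18 ± 0.46 and 11.74 ± 1.05, a difference of 6.56 (SE 0.43, 95% interval 5.61 to 7.51), or 94.4-fold.

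**Figure D2:**
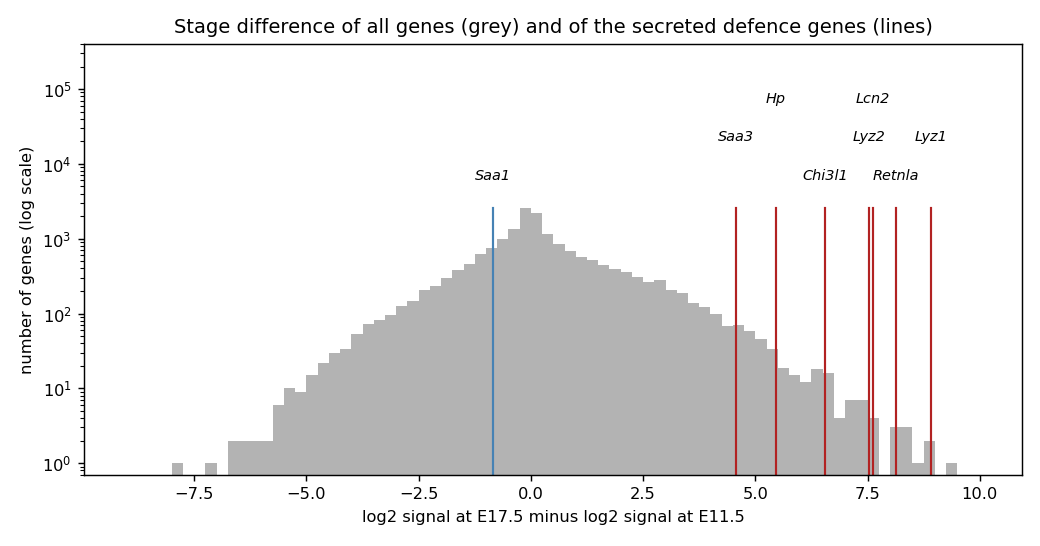
Number of genes (vertical axis, log scale) by log2 signal at E17.5 minus log2 signal at E11.5 (horizontal axis) for all 17813 genes in grey, with a line at the value of each member. Saa1 lies just left of 0 at -0.84, and the other 7 lie in the right tail from 4.56 to 8.90.

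The second question was how far the members differed among the 5 E17.5 arrays. Their spread ran from wide to narrow without a break. Chi3l1 (SD 1.05), Saa3 (1.04) and Lcn2 (0.81) were the widest: 0.438%, 0.460% and 1.66% of all genes had an SD at E17.5 at least as large. Hp (0.52) and Lyz2 (0.36) came between, with 8.30% and 19.2% of genes. Lyz1 (0.22), Retnla (0.24) and Saa1 (0.11) had SDs that 46.6%, 43.5% and 85.9% of genes matched or passed. The signal levels differed too. Lyz1 and Retnla had E17.5 means of 14.06 and 13.49, where the highest value of all was 15.03, and Saa1 was dim at 5.14. The 3 widest had means of 9.45 to 11.87. Whether the signal level narrowed or widened an SD was not tested. The median SD of the 8 was 0.44 at E17.5 and 0.30 at E11.5, against 0.21 and 0.16 over all genes. At E17.5 the SD was larger than at E11.5 in 6 of the 8, and over all genes in 66.41%.

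From the highest to the lowest E17.5 array, the signal of Saa3 differed 6.74-fold, that of Chi3l1 6.23-fold, that of Lcn2 3.96-fold and that of Hp 2.46-fold. For Lyz2, Retnla and Lyz1 these ratios were 1.88, 1.57 and 1.53. Saa3 and Chi3l1 thus varied more between arrays of one stage than Saa1 did between stages.

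**Figure D3:**
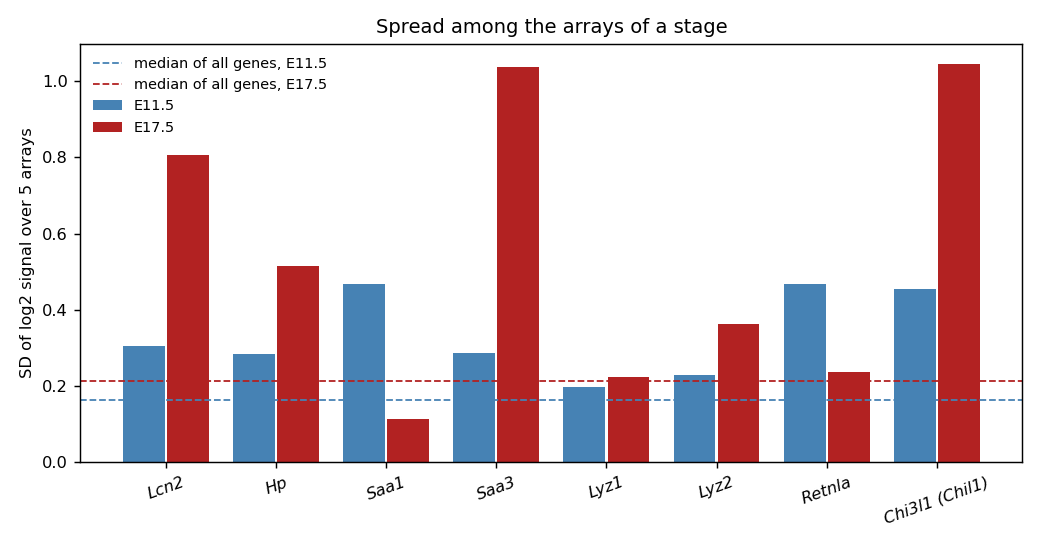
SD of the log2 signal over the 5 arrays of a stage (vertical axis) for each member at E11.5 (blue bars) and E17.5 (red bars), with dashed lines at the medians of all genes. Lcn2, Saa3 and Chi3l1 have the tallest red bars, 0.81, 1.04 and 1.05, and Saa1 the shortest, 0.11.

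A single array carried much of this spread. E17.5 replicate 4 was the lowest in 7 of the 7 genes that were higher at E17.5. The same array was the lowest in 23.2% of all genes and in 30.2% of the genes called higher at E17.5. Its log2 signal differed from the mean of the other 4 by -1.92 for Chi3l1, -1.63 for Saa3, -1.54 for Lcn2, -1.12 for Hp, -0.77 for Lyz2, -0.45 for Lyz1 and -0.35 for Retnla. Without it the median SD of the 8 was 0.17 in place of 0.44. An SD tends to fall when an end array is left out, and the same value over all genes is not given here. Taken one by one, the SD went to 0.69 for Chi3l1, to 0.85 for Saa3, to 0.48 for Lcn2 and to 0.13 for Hp.

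Leaving out replicate 4 could only raise the stage differences of the 7 rising genes, because it was their lowest E17.5 array. Without it the folds were 244 for Lcn2, 51.1 for Hp, 29.6 for Saa3, 510.1 for Lyz1, 206 for Lyz2, 296 for Retnla and 123 for Chi3l1.

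The remaining arrays also kept an order in part of the set. Lcn2, Saa3 and Chi3l1 all ran from replicate 1 through 3, 2 and 5 down to 4, an order found in 1.39% of all genes. Hp ran 1, 2, 3, 5, 4, Lyz1 ran 3, 1, 2, 5, 4 and Lyz2 ran 3, 2, 1, 5, 4, so that replicate 5 was the second lowest in these too. Retnla alone among the 7 had replicate 2 second from the bottom.

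**Figure D4:**
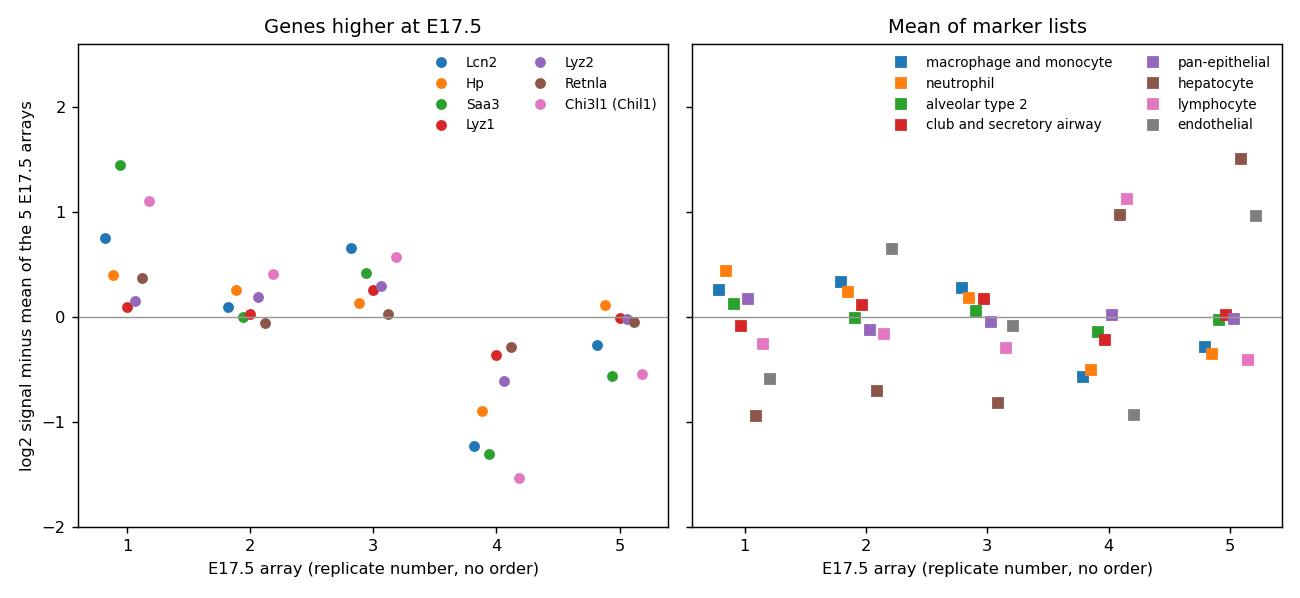
log2 signal minus the mean of the 5 E17.5 arrays (vertical axis) on each E17.5 array (horizontal axis; replicate numbers have no order), for the 7 members higher at E17.5 (left) and for the mean signal of 8 marker lists (right). Every member is below 0 on replicate 4, as are the endothelial, macrophage, neutrophil, club and alveolar type 2 lists. The hepatocyte and lymphocyte lists are above 0 there, and the pan-epithelial list is close to 0.

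The labelled cell type was checked by its markers, which were called in limma at an adjusted p under 0.05. By this rule 36.9% of all genes were higher and 31.5% lower at E17.5, and the shares higher on the lists for tip (45.5%), mesenchymal (35.7%), adipocyte (33.3%) and eosinophil, basophil and mast cell markers (33.3%) stand near that background. The mean log2 signal of 15 pan-epithelial markers was between 11.41 and 11.62 on the E11.5 arrays and between 12.10 and 12.39 on the E17.5 arrays, and E17.5 replicate 4 was 0.02 above the mean of the others. Of 14 alveolar type 2 markers 12 rose and 2 fell, and all 10 alveolar type 1 markers rose. The 2 that fell were Lpcat1 (26.6-fold, from a mean of 7.90 to 3.17) and Etv5 (2.55-fold). The paper detected LPCAT1 protein robustly in tip cells from E16.5, the other direction, and the reason for the difference was not tested. Of 11 measured tip markers 5 rose and 4 fell.

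Markers of myeloid cells were also higher at E17.5, and their mean was also low on replicate 4. The E17.5 cells had been sorted by GFP, a gate for Id2-driven recombination, and how many other cells the sort kept was not tested. Of 26 macrophage and monocyte markers 22 rose and 1 fell, with mean signals of 5.31 to 6.01 at E11.5 and of 8.86, 8.94, 8.89, 8.04 and 8.32 on E17.5 replicates 1 to 5. Replicate 4 differed from the mean of the other E17.5 arrays by -0.72, and it was below that mean for 25 of the 26 markers. For Csf1r and Ptprc it hardly differed (-0.05 each), and for Aif1 it was above (0.74). Cd53, a tetraspanin of leukocytes, rose by 6.47 on the log2 scale, Csf1r, the receptor for macrophage growth factor, by 4.22 and Adgre1, the F4/80 antigen, by 2.70, while Itgam differed by 0.18 with an adjusted p of 0.30. Of 12 neutrophil markers 7 rose and 2 fell, with means of 4.76 to 5.50 at E11.5 and of 7.41, 7.21, 7.15, 6.46 and 6.62 at E17.5, with replicate 4 at -0.63 from the mean of the others. It was below them for 8 of the 12 and above them for 4, among them Mpo (0.44) and Prtn3 (0.42), the markers that fell with stage. S100a8 rose by 6.23 and S100a9 by 6.04, whereas Elane, neutrophil elastase, differed by -0.10 with an adjusted p of 0.56. The part of myeloid cells in the members' signals was not tested.

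The means of lung secretory markers moved less between the E17.5 arrays. Single club and secretory airway markers had SDs there from 0.16 (Scgb3a2) to 0.79 (Scgb1a1). Alveolar type 2 markers had means of 8.85 to 9.07 at E11.5 and of 12.75, 12.62, 12.69, 12.48 and 12.60 at E17.5, which is the order of Lcn2, Saa3 and Chi3l1 within a narrower range, with replicate 4 at -0.18 from the mean of the others. Of 12 club and secretory airway markers 9 rose and 1 fell, with means of 5.75 to 5.99 at E11.5 and of 9.30 to 9.69 at E17.5, and replicate 4 was at -0.28 from the mean of the others. Replicate 4 was below the mean of the others for 11 of 14 alveolar type 2 markers and for 10 of 12 club and secretory airway markers. Whether the signal level of these markers, up to an E17.5 mean of 14.71 for Sftpc, narrowed their spread was not tested. The part of these epithelial cells in the members' signals was not tested either.

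Liver markers ran the other way. Of 13 hepatocyte markers 3 rose and 2 fell, with means of 5.80 to 6.03 at E11.5 and of 5.71, 5.94, 5.83, 7.62 and 8.15 at E17.5. Their mean was thus high on replicates 4 and 5, where Saa3 and Lcn2 were lowest, and on the other 3 E17.5 arrays it was near the E11.5 range. The 3 that rose, Alb, Fga and Fgg, were above every E11.5 array on all E17.5 arrays. Hp was at 12.57, 12.43, 12.30, 11.27 and 12.28 on E17.5 replicates 1 to 5, so that it was low on replicate 4 alone. The part of liver cells in the members' signals was not tested. Lymphocyte markers, of which 8 of 11 rose and 1 fell, had a mean of 7.51 on replicate 4 and of 5.98 to 6.23 on the other E17.5 arrays. Of 14 endothelial markers 13 rose, and replicate 4 was at -1.17 from the mean of the others and below it for all 14. Erythroid markers had means of 7.36 to 8.55 at E11.5 and of 5.37 to 6.03 at E17.5, with 1 of 8 higher and 4 lower. Of 14 mesenchymal markers 5 rose and 4 fell, of 12 eosinophil, basophil and mast cell markers 4 rose and 2 fell, and of 6 adipocyte markers 2 rose.

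Genes whose profile over the 10 arrays was most like that of each member were found by the root mean square difference of centred log2 signals, in which the stage difference weighs most. Saa3 was closest to Il6 (0.26) and Osm (0.30), cytokines that induce acute-phase genes, and to Plet1 (0.32). Lcn2 was closest to the chemokine gene Cxcl2 (0.34), to Ptgs2 (0.42), which encodes an enzyme of prostaglandin synthesis, and to Cbr2 (0.42). Lyz2 was closest to Ptgs2 (0.28), Cxcl2 (0.32) and Egr2 (0.32). The nearest genes to Lyz1 were Slc34a2 (0.28) and Napsa (0.31), both used as markers of alveolar type 2 cells, and Sec14l3 (0.31). Retnla was nearest to Cd36 (0.25), Napsa (0.31) and Fosb (0.32), and Chi3l1 to the chemokine genes Ccl3 (0.26) and Ccl6 (0.43) and to Cd53 (0.46). Hp was nearest to Stom (0.21), Fabp12 (0.23) and Plk2 (0.26), and Saa1 to Fzd10 (0.17), Kel (0.18) and Rhd (0.19). The closest pairs within the set were Lcn2 with Lyz2 (0.42), Lyz2 with Retnla (0.43) and Lyz1 with Retnla (0.47). The adjacent lysozyme genes were 0.69 apart.

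The members were next set beside the genes around them, in lists that hold none of the 8. Listed genes were called in limma where the p adjusted over all 17813 genes was below 0.05, by which 36.9% of all genes were higher and 31.5% lower at E17.5, 68.4% in all. The balance turned with the scaling: in place of 6568 genes higher and 5609 lower, quantile normalization gave 5676 and 6949, and median centring 5920 and 6576.

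Other secreted antimicrobial and defence proteins were mostly higher, like the members. Of 35 measured, 22 rose (62.9%), 3 fell and 10 did not pass, with a median difference of 1.34. Secretoglobin 1a1, the main secreted protein of club cells, rose 501-fold (log2 difference 8.97, SE 0.32, adjusted p 1.1e-10), Scgb3a2 323-fold, the lung collectin Sftpd 281-fold and Pglyrp1, which binds bacterial peptidoglycan, 134-fold. The lower genes were Bpifb1, an airway lipid-binding protein (27.3-fold), Mpo, the myeloperoxidase of neutrophil granules (2.47-fold), and Lpo, lactoperoxidase (1.27-fold, adjusted p 0.049, not called under quantile normalization, with the replicate number as a block, at an adjusted p of 0.054, or without any one of 7 arrays). With arrays centred on their medians 6 genes of the list were lower. Of the 35 genes, 7 are also on the neutrophil list and 6 on the club and secretory airway list.

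Close relatives of Chi3l1 and Retnla were split. Of 8 chitinase-like and resistin-like genes 3 rose, 1 fell and 4 did not pass, with a median difference of 0.04. Chia1, the acidic chitinase, rose 33.0-fold (adjusted p 5.5e-06), Chil3, a macrophage chitinase-like protein, rose 11.8-fold (adjusted p 0.00013), and Retnlb, beside Retnla in the genome, rose 1.54-fold (adjusted p 0.013). Like Chi3l1, Chia1 and Chil3 were low on E17.5 replicate 4, which differed from the mean of the other arrays by -2.18 and -2.28. Chid1 fell 1.82-fold. Chit1, beside Chi3l1 in the genome, differed by -0.01, Retn, encoding resistin, by 0.09, Chil4 by -0.10 and Ovgp1 by -0.24, of which Ovgp1 was called lower under quantile normalization and under median centring.

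Of 25 other positive acute-phase proteins 16 rose (64.0%), 0 fell and 9 did not pass, with a median difference of 1.12, and at an unadjusted p under 0.05 the counts were 17 and 0. Mt1, a metallothionein, rose 42.5-fold, Cd14, a coreceptor for lipopolysaccharide, 26.7-fold, Cp, the copper carrier ceruloplasmin, 21.2-fold and Itih4 7.46-fold. Crp, encoding C-reactive protein, and Orm2, an orosomucoid, are liver genes picked here after their values were seen, and they differed by 0.02 and -0.07. Both were near the lowest value of all (2.472) at both stages, Crp at 3.05 and 3.07 and Orm2 at 3.371 and 3.305, so a difference could hardly be seen. The hepatocyte markers Fga and Fgg, on the same list, rose 6.7-fold and 7.1-fold. Serpina1b differed by -1.61 with an adjusted p of 0.14, and was called lower without E17.5 replicate 4 (-2.25) or replicate 5 (-2.19), the arrays with the high hepatocyte markers. Fgb, which also did not pass, was called higher without E17.5 replicate 1 (1.96) or 3 (1.96), and Steap4 without replicate 3 (0.68) or 4 (0.76). The mean signal of the list was 6.64, 6.73, 6.66, 6.89 and 7.07 on E17.5 replicates 1 to 5, highest on replicates 5 and 4 like that of the hepatocyte list, with which it shares 3 genes, and unlike the members. The genes called higher were divided on replicate 4. It was above the mean of the others for Fga (1.87), Itih3 (1.11), Fgg (1.00), Hpx (0.52), Mt1 (0.18) and Lbp (0.11). Below that mean, as for the members that rose, it was for Lrg1 (-1.04), Orm1 (-0.97), Itih4 (-0.85), Ptx3 (-0.75) and Cp (-0.75). The same held for Saa4 (-0.70), Cfb (-0.52), Cd14 (-0.44), Fn1 (-0.32) and Mt2 (-0.03). With arrays centred on their medians 1 gene, Orm3, was lower.

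Negative acute-phase plasma proteins, liver products that fall in inflammation, showed no common direction: of 11 measured 2 rose, 3 fell and 6 did not pass, with a median difference of 0.23. Alb, serum albumin, rose 23.9-fold and Apoh 5.55-fold, and both were higher on E17.5 replicate 4 than on the others, by 1.63 and 1.81. Itih2 fell 5.01-fold, the retinol carrier Rbp4 2.95-fold and Ambp 2.05-fold (adjusted p 0.040). Ambp was no longer called without any one of the 5 E11.5 arrays or without E17.5 replicate 1, 2 or 3, Ttr was called lower without E17.5 replicate 5, and Ahsg was called higher without E17.5 replicate 2. Apoa2 was called higher with the replicate number as a block (adjusted p 0.0499).

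Receptors and partners of the members' proteins rose in 13 of 18 (72.2%) and fell in 0, with 5 not passing and a median difference of 2.16. At an unadjusted p under 0.05 the counts were again 13 and 0, and under quantile normalization 2 genes, Scarb1 and Slc22a17, were lower. The largest rises were those of Cd36, a scavenger receptor for lipids and serum amyloid (275-fold), Lgals3 (134-fold), the formyl peptide receptor Fpr2, which binds serum amyloid (77.6-fold), and Cd44 (26.8-fold). By member, and chosen after their values were seen, the haptoglobin receptor Cd163 rose 3.70-fold, megalin (Lrp2), which takes up lipocalin 2, rose 3.46-fold, and Tmem219, a receptor subunit for chitinase 3-like 1, rose 5.72-fold. The other lipocalin receptor, Slc22a17, differed by 0.14 with an adjusted p of 0.38. Il13ra2 and Ptgdr2, listed beside Tmem219, differed by -0.12 and 0.04 at dim means of 4.64 to 4.90. The rise of Tmem219 thus does not stand for these other receptors. Scarb1 differed by 0.20 and Apoa1 by 0.17. None of these genes was called, and Scarb1 was called higher without E17.5 replicate 4.

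Signals and factors known to induce the acute-phase response rose in 26 of 34 (76.5%) and fell in 4, with a median difference of 1.48. Il1b, encoding interleukin 1 beta, rose 58.4-fold, its receptor Il1r1 54.3-fold, the oncostatin M receptor Osmr 36.7-fold and the C/EBP factor Cebpd 27.3-fold. The cytokine genes nearest to Saa3 in profile, Il6 and Osm, rose 23.5-fold and 22.5-fold. The 4 that fell were Il6st, the shared receptor chain gp130 (3.12-fold), Stat3 (2.40-fold), Il17ra (1.36-fold) and Jak2 (1.26-fold). The Stat3 probe set was dim, with means of 6.09 at E11.5 and 4.83 at E17.5, and Il6st was at 7.87 and 6.23. With genes below the median signal dropped, 1 gene of the list was lower, so these falls cannot be read closely. Il1rap, Il6ra, Nr3c1 and Il17a did not pass, with differences of 0.53, -0.12, -0.12 and -0.03. Of these, Nr3c1, the glucocorticoid receptor, was called lower under quantile normalization and median centring, and Il1rap was called higher without E17.5 replicate 3 or 4.

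Signals and factors of alternative macrophage activation, the setting in which Retnla is best known, rose in 15 of 20 (75.0%) and fell in 2, with a median difference of 1.27. Il33, an alarmin of epithelium, rose 132-fold, Il4ra, the interleukin 4 receptor chain, 11.1-fold and Tfec 11.0-fold. Il13ra1, the other chain of the receptor for interleukins 4 and 13, fell 27.4-fold and Arg1, arginase 1, 2.50-fold. Cd209a, Il13 and Il25 did not pass, with differences of 0.65, 0.10 and 0.03, and Cd209a was called higher without E17.5 replicate 4 and with the replicate number as a block (adjusted p 0.047).

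**Figure D5:**
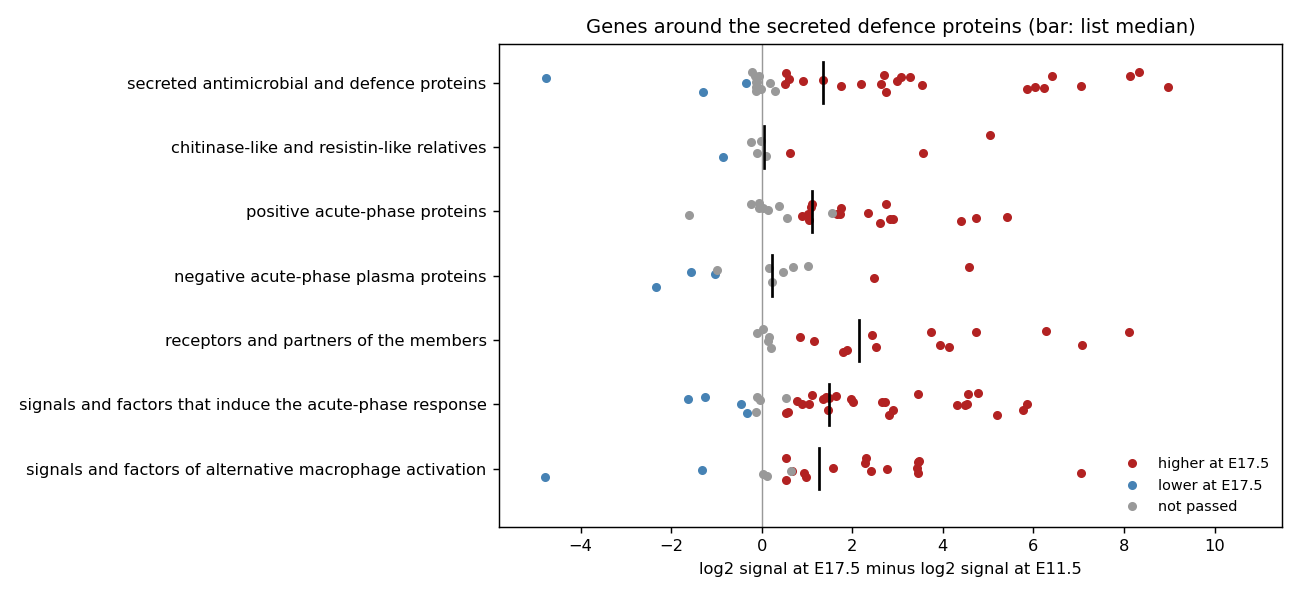
log2 signal at E17.5 minus log2 signal at E11.5 (horizontal axis) of each measured gene of the 7 lists (rows), coloured by its call in limma (red higher, blue lower, grey not passed), with a black bar at the median of the list. The medians run from 0.04 for chitinase-like and resistin-like relatives to 2.16 for receptors and partners.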

How the data were processed

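RNA of E11.5 tips and E17.5 GFP+ tip cells was amplified and labelled by the authors with NuGEN kits, hybridised to Affymetrix mouse arrays and analysed with Bioconductor in R. The deposited values are log2 signals of 21204 probe sets, from 2.472 to 15.03, and the scale was read from this range. For the background correction, the normalization and the choice of probe sets, the method was not given in the sources used here. Array precision is limited by their number, 5 per stage.

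Of the probe sets 17981 name 1 gene, 514 several and 2709 none in the platform annotation, and only the first were used. Of these, 17832 were found by Entrez identifier in a RefSeq table of GRCm38.p6, used for names, gene order and promoter windows. For 167 genes with several probe sets the highest mean was taken. The stages were compared with limma 3.58.1 (lmFit, eBayes) in R 4.3.3 without a block, Benjamini-Hochberg adjusted over 17813 genes. Arrays correlated at 0.988 to 0.996 within E11.5, 0.984 to 0.993 within E17.5 and 0.819 to 0.847 between stages. The fit was tested on simulated data. Motifs and alignments used Python 3.11.15 and Biopython 1.88.

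The members and all lists were chosen with earlier results of these data known. All 8 members are named, with the 3 genes nearest to each in profile. From each pathway list up to 4 called genes with the largest change and any class of 5 or fewer are named, and from marker lists up to 4. Beyond this rule, further genes are named for their direction, their E17.5 replicate 4 value, a changed call or a tie to a member. These were picked after their values were seen. The alternatives were other normalizations, choices of probe set, filters, weights, a replicate block and leaving out each array.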

Additional observations from a re-analysis of the deposited data

Results flagged for a closer look

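In 6 of 60 groups of 5 arrays, 1 array stood apart from the others by Dixon's criterion, and chance gives about 1 in 20 groups. Of the members at E11.5, Lcn2 was at 4.79 on replicate 5 with the nearest array at 4.17, Saa1 at 6.80 on replicate 3 with the nearest at 5.87, and Chi3l1 at 5.96 on replicate 3 with the nearest at 5.10. At E17.5, Hp was at 11.27 on replicate 4 with the nearest array at 12.28. Of the marker lists at E17.5, the lymphocyte mean was 7.51 on replicate 4 with the nearest at 6.23, and the erythroid mean was 6.03 on replicate 1 with the nearest at 5.50. All values are log2 signals.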

How the results depend on the processing

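The difference of each member kept its direction under every alternative that held it. Lcn2, Saa3 and Lyz1 were absent without probe sets of a suffix, and Saa1 and Saa3 without dim genes. Saa1 went from -0.84 to -0.42 with its other probe set. The median of the members was 6.56 over the 5 with probe sets of no suffix, 7.58 over the 6 left without dim genes (those below the median probe set in mean signal), and 7.53 by platform symbol alone, an alternative chosen after seeing the data. The cause of these shifts was the smaller set of members. Leaving out 1 array gave medians of 6.86 to 7.32 and median SDs at E17.5 of 0.167 to 0.504.

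Without dim genes, 3404 genes were lower in place of 5609. With fewer genes tested, the counts became 10 higher and 0 lower for defence proteins, 1 higher for chitinase-like relatives, 5 higher for positive and 1 higher for negative acute-phase proteins, 7 higher for receptors, 1 lower for inducing signals, and 8 higher and 1 lower for macrophage activation. Quantile normalization gave 2 lower chitinase-like relatives and 2 lower receptors. Median centring gave 6 lower defence proteins, 2 lower chitinase-like relatives and 1 lower positive acute-phase protein. The cause was not tested. Positive acute-phase proteins called lower ranged from 0 to 1 when 1 array was left out. Median centring moved the median of all genes by -0.13 and quantile normalization by -0.07, and relative to that median Saa1 was at -0.87 as deposited and at -0.82 after quantile normalization.

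The replicate numbers were not shown to pair the arrays: deviations of arrays with the same number correlated at -0.294, -0.184, -0.006, -0.098 and 0.074. A fit with the number as a block gave 6385 genes higher and 5349 lower, against 6568 and 5609, and of the listed pathway genes it changed the calls of Lpo, Cd209a and Apoa2 alone. The limits are those of the arrays: a dim probe set, such as those of the members at E11.5, understates a fold. The folds and their ranks given above are those of the measured signals, and neither they nor levels can be compared closely between probe sets.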
